A study of Mus musculus with 18 samples.

Results

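Clec2h, Cib3, Gpx6, Prss8, Duxbl1, Irf2bpl, Hs3st3b1 and Mgat4b are genes whose transcripts were lower in the liver of NPC1L1-Liver-Transgenic mice than in wild-type liver. They were chosen by that difference: of 17097 genes measured, 10 were called lower at a limma adjusted p under 0.05, and these 8 are among them. Their values in wild-type and transgenic liver are therefore given as a description, with no test, and only measures that the choice did not use were tested. The platform annotation gives the 8 genes 16 probe sets, of 45037 on the array after its control probe sets were left out. A single probe set stands for each of 4 genes, and the other 4 have several.

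The arrays were hybridised with total liver RNA from female mice aged 6 to 8 weeks. Wild-type samples (n = 5) and samples with the NPC1L1 transgene in the liver (n = 5) were from C57BL/6. On C57BL/6N, 4 samples came after an antisense oligonucleotide (ASO) directed at ACAT2 and 4 after a control ASO that is non-targeting. Both models were used to stimulate transintestinal cholesterol excretion, the loss of cholesterol through the intestine rather than bile, chronically with the transgene and acutely with the ACAT2 ASO. The sources used here give neither the promoter that drives the transgene nor its species, nor the ASO dose and duration. Both groups of the ASO model thus received an oligonucleotide, and the labels name none for the transgenic model.

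The 8 genes do not form a pathway. Clec2h encodes a C-type lectin-like surface protein of the Clec2 (Clr) family, some members of which are ligands of the NKR-P1 receptors of natural killer cells. Prss8 encodes prostasin, a membrane-anchored serine protease of epithelia that acts on the epithelial sodium channel. Cib3 belongs to the calcium- and integrin-binding proteins, which carry EF hands. Gpx6 is a glutathione peroxidase known from olfactory epithelium. Duxbl1 is a double homeobox gene, and Irf2bpl encodes a nuclear protein related to the binding proteins of the transcription factor IRF2. Hs3st3b1 and Mgat4b encode Golgi enzymes that modify sugar chains, the former by 3-O-sulfation of heparan sulfate and the latter by starting a branch on N-glycans.

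The promoters of these genes differ in base composition. RefSeq promoters (GRCm38.p6) were found for 5 of the 8 genes, and the 250 bases before the start site are described here. The start site is the one given with each promoter, and other start sites of a gene were not looked at. The Cib3 window holds atgggcaacaag, which opens a reading frame. It may therefore include coding sequence of another transcript, which was not checked. Those of the 2 genes with the largest difference in transgenic liver, Clec2h and Cib3, and of the 2 genes with the most CpG dinucleotides, Irf2bpl and Hs3st3b1, are printed 5′ to 3′ with CpG dinucleotides in capitals. They lie at chr6:128662135-128662384 on the plus strand (Clec2h) and, on the minus strand, at chr8:72212838-72213087 (Cib3), chr12:86884815-86885064 (Irf2bpl) and chr11:63922285-63922534 (Hs3st3b1).
Clec2h: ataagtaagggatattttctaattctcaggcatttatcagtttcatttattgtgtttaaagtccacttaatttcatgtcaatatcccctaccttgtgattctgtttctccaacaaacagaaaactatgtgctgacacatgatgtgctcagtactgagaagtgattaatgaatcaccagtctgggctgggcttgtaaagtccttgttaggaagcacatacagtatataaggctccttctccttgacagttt
Cib3: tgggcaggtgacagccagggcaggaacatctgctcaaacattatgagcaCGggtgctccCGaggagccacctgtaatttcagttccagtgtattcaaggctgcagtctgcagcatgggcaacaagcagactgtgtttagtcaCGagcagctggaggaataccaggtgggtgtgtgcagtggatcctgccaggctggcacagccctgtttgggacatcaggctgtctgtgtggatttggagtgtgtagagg
Irf2bpl: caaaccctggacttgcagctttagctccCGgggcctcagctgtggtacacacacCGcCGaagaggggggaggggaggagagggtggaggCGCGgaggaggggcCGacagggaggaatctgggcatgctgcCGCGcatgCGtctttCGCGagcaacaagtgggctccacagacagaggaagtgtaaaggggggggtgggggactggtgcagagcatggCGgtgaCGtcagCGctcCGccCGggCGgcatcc
Hs3st3b1: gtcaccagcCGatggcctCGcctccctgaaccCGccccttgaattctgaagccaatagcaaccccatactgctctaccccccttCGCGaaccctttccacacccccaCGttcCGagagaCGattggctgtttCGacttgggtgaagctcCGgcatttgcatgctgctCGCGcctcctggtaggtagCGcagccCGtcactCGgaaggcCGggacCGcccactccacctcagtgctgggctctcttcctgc

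The Clec2h promoter held 0 CpG dinucleotides at 37.2% GC, against a median of 6 CpG and 52.4% GC over 32841 promoters of the same length. Cib3 held 3 CpG at 55.2% GC, and Gpx6, at chr13:21311953-21312202 on the plus strand, held 3 at 50.8% GC. Irf2bpl and Hs3st3b1 each held 17, more than 76.5% of all promoters. The 5 promoters thus fall on both sides of the median.

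On either strand, 8 motifs were searched. Irf2bpl held TGACGTCA, the core of the cAMP response element, at position -30 from the start site, a motif present in 1.55% of all promoters. It also held GGGCGG, the GC box, at -17 on the minus strand and at -11 on the plus strand, without overlap. Hs3st3b1 held the GC box at -219 and -37 and CCAAT at -199 and -129. Gpx6 held CACGTG, the E-box that clock proteins bind, at -121 and CCAAT at -42. The GC box letters occur in 32.7% of promoters, the letters CCAAT in 33.9% and the E-box letters in 6.02%. Only the letters given were searched, and variants of a motif were not counted. In these letters none of the 8 motifs was found in the windows of Clec2h and Cib3. Found in none of the 5 were the TATA box TATAAA (12.4% of promoters), the nuclear receptor half-site AGGTCA (14.0%), the HNF1 half-site GTTAAT (6.43%) and the sterol regulatory element type TCACNCCAC (1.05%). The Clec2h window holds TATATAAG near its end, a TATA-like stretch that the search for TATAAA did not count. No motif in the letters searched was shared by all 5.

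Values are RMA log2 values, a scale on which a difference of 1 is a doubling, and log2 levels were compared within a model only. The array medians were 4.61 to 4.65 in the transgenic model and 4.38 to 4.40 in the ASO model. The 12 hepatocyte markers gave array means of 11.7 to 12.1, with Alb at 13.6 in each group, whereas Pck1, a gluconeogenic enzyme gene among them, had group means of only 3.48 to 3.90. The 3′ minus 5′ difference of the Actb control probe sets, a sign of RNA integrity, was 0.83 to 1.02 in wild type, 0.89 to 1.26 in transgenic, 0.99 to 1.09 after control ASO and 0.92 to 1.18 after ACAT2 ASO. The single mouse Npc1l1 probe set read 3.64 to 4.16 in wild type and 3.61 to 3.75 in transgenic liver (limma adjusted p = 0.604). As the transgene's species is not stated, this probe set does not check the labels, and the target of the ASO was not analysed here.

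In transgenic liver all 8 genes were lower without overlap, meaning that each of the 5 transgenic arrays lay below each of the 5 wild-type arrays. This was so for 0.801% of all genes, and 0.0585% of all genes were called lower (0.228% in either direction). The choice of the genes used this contrast, so nothing is read from these counts. The log2 differences ran from -1.36 for Clec2h to -0.24 for Mgat4b, with a median of -0.53, against 0.0058 over all genes. The other 2 genes called lower were Arntl2 and 1700052I22Rik. The plot of levels by array shows the 8 genes in all 4 groups.

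**Figure D1:**
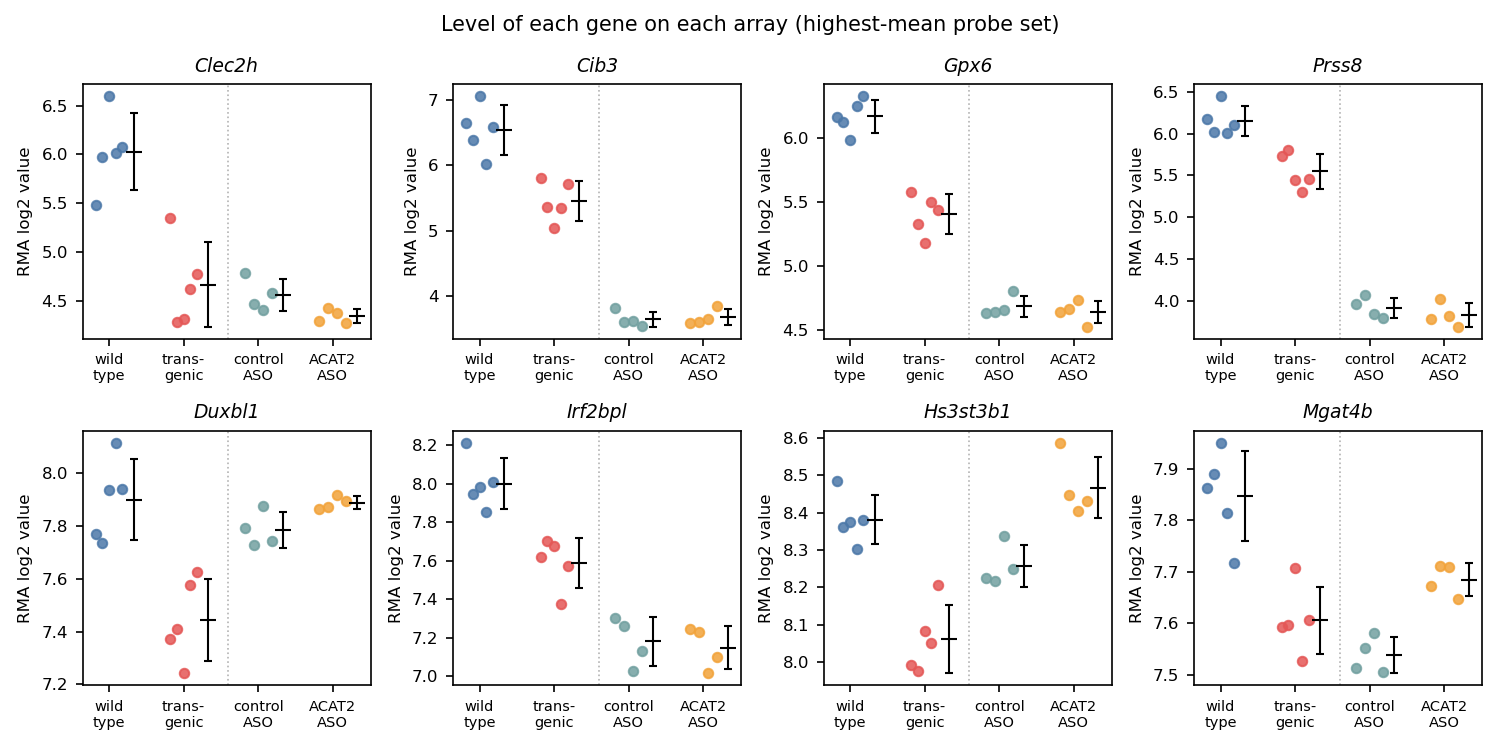
RMA log2 value (vertical axis) of the highest-mean probe set of each gene on each array (points), by group, with the group mean and SD (black bars; n = 5, 5, 4 and 4). The transgenic points lie below the wild-type points in all 8 panels, by a gap of 0.41 for Gpx6 and of 0.009 for Mgat4b, and in the panels of Hs3st3b1 and Mgat4b the ACAT2 ASO points lie above the control ASO points. The dotted line separates the models, between which levels are not compared.

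After ACAT2 ASO none of the 8 genes was called (0 of 8 at a limma adjusted p under 0.05, 0.597% of all genes called). The group means of this comparison share no arrays with the transgenic model, but the fit estimates the spread over all 18 arrays, those that chose the genes included. With the arrays of the ASO model alone 0 of 8 were called too, with adjusted p-values from 0.181 (Hs3st3b1) to 0.892 (Cib3). At an unadjusted p under 0.05 there were 2 of 8, Hs3st3b1 and Mgat4b, against 13.3% of all genes. Both were higher, not lower, and 2 of 8 are too few to set against that share. The median difference of the 8 genes was -0.0011, against -0.0006 over all genes, and 4 of 8 lay below 0, against 50.3% of all genes. Separate animals are not stated in the labels, and each p-value therefore reflects variation among these samples that may be technical.

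Clec2h, the lectin-like surface protein, had the largest difference. On the probe set with its highest mean, 1451438_PM_s_at, the values of arrays 1 to 5 were 5.48, 5.97, 6.60, 6.01 and 6.08 on wild-type and 5.35, 4.28, 4.31, 4.62 and 4.77 on transgenic arrays. Transgenic array 1 lay 0.13 below wild-type array 1, the lowest of its group, and the other 4 transgenic arrays lay further down. The means were 6.03 ± 0.40 in wild type and 4.67 ± 0.43 in transgenic liver (SD, n = 5), a wild-type to transgenic ratio of 2.57.

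The other Clec2h probe sets showed larger differences. On 1424673_PM_at the values were 5.95, 7.11, 8.04, 6.62 and 6.73 on wild-type and 5.86, 3.49, 2.92, 3.13 and 4.77 on transgenic arrays. The log2 difference was -2.86. Transgenic arrays 2 to 4 lay near the group medians of the 23 nonspecific control probe sets, 3.09 to 3.15, so no ratio is given. On 1431240_PM_at the log2 difference was -2.14, with wild type from 5.52 to 7.53 and transgenic from 3.75 to 5.52. Transgenic array 1 was the highest of its group and wild-type array 1 the lowest on all 3 probe sets, and their values differed by 0.09 on 1424673_PM_at and by 0.0001 on 1431240_PM_at. Without transgenic array 1 the difference on 1451438_PM_s_at was -1.53. Fewer cells of a type that carries a transcript and less of the transcript per cell cannot be told apart in RNA of whole liver, for this gene and for the others.

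**Figure D2:**
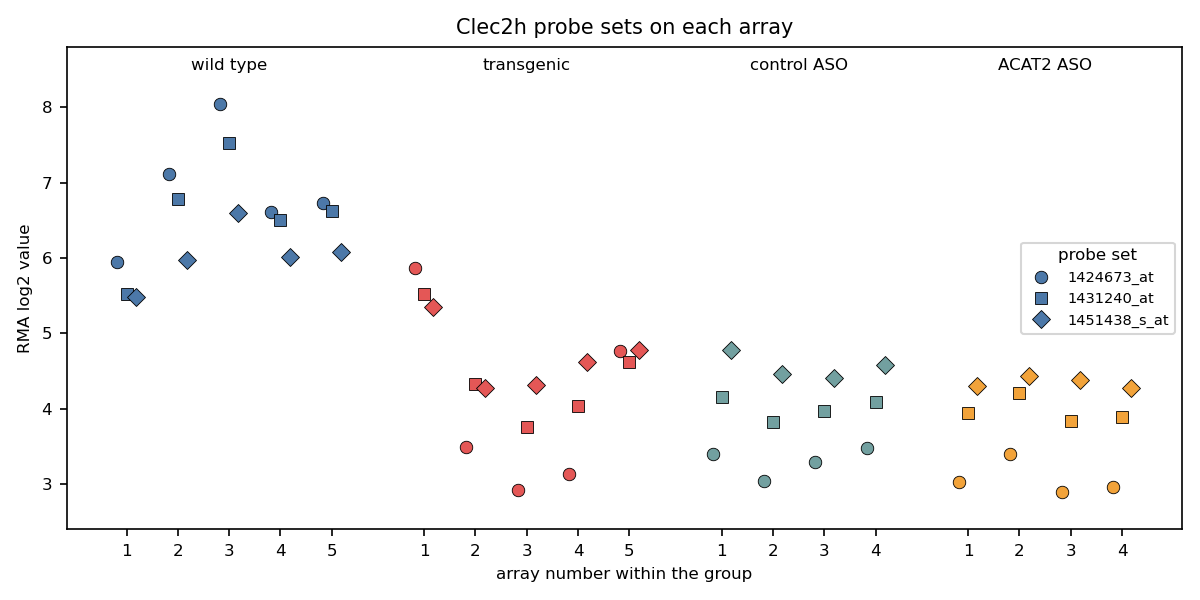
RMA log2 value (vertical axis) of the 3 Clec2h probe sets (circle, square and diamond) on each array (horizontal axis, array number within its group). On all 3 probe sets wild-type array 3 is highest and wild-type array 1 lowest of its group, and transgenic array 1 lies next to wild-type array 1.

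After ACAT2 ASO, Clec2h read 4.30, 4.43, 4.37 and 4.27, against 4.78, 4.46, 4.40 and 4.57 after control ASO. The groups overlapped. The difference was -0.21 ± 0.21 (SE; 95% interval -0.66 to 0.23; limma adjusted p = 0.737). The control ASO arrays lay at 4.56 ± 0.17 (SD, n = 4), and how much room this left to see a fall was not tested. On 1424673_PM_at all 8 arrays of the ASO model read 2.89 to 3.47, near the group medians of the nonspecific controls. That probe set had little room to show a fall. The nonspecific controls rose with probe GC content up to 7.54, and the GC content of the Clec2h probes is not in the files used here.

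Prss8, the epithelial protease prostasin, read 6.17, 6.02, 6.45, 6.01 and 6.10 in wild-type liver. In transgenic liver it read 5.73, 5.81, 5.45, 5.30 and 5.46. The groups lay 0.21 apart at their closest. The means of 6.15 ± 0.18 and 5.55 ± 0.21 (SD, n = 5) differed by -0.60, a ratio of 1.52. After ACAT2 ASO it read 3.79, 4.03, 3.82 and 3.69, against 3.96, 4.07, 3.85 and 3.80 after control ASO. These groups overlapped, with a difference of -0.09 ± 0.11 (SE; 95% interval -0.33 to 0.15; limma adjusted p = 0.824).

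Cib3, the calcium- and integrin-binding protein, read 6.64, 6.39, 7.06, 6.02 and 6.59 on wild-type and 5.81, 5.37, 5.04, 5.35 and 5.71 on transgenic arrays. The means of 6.54 ± 0.38 and 5.46 ± 0.31 (SD, n = 5) differed by -1.08, a ratio of 2.12. Wild-type array 4 was the lowest of its group and transgenic array 1 the highest, 0.21 apart. In the ASO model Cib3 lay between 3.55 and 3.86 on all 8 arrays: the ACAT2 ASO arrays gave 3.59, 3.62, 3.65 and 3.86, the control ASO arrays 3.82, 3.61, 3.62 and 3.55. The difference was 0.03 ± 0.18 (SE; 95% interval -0.34 to 0.40; limma adjusted p = 0.968).

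Gpx6, the glutathione peroxidase, showed the widest gap of the 8 between wild type and transgenic. The values were 6.17, 6.12, 5.99, 6.25 and 6.33 on wild-type and 5.57, 5.33, 5.18, 5.50 and 5.44 on transgenic arrays. The means of 6.17 ± 0.13 and 5.40 ± 0.15 (SD, n = 5) differed by -0.77, or 5.36 pooled SDs of the groups, a ratio of 1.70. The lowest wild-type array lay 0.41 above the highest transgenic array. The ACAT2 ASO arrays gave 4.64, 4.67, 4.73 and 4.52, and the control ASO arrays gave 4.63, 4.64, 4.66 and 4.80. The difference was -0.04 ± 0.08 (SE; 95% interval -0.22 to 0.13; limma adjusted p = 0.884), and the groups overlapped. The control ASO arrays lay at 4.68 ± 0.08 (SD, n = 4), above the median of the nonspecific controls in that group, 3.14. How much room this left to see a fall was not tested.

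Duxbl1, the double homeobox gene, was lower on only 1 of its 3 probe sets. On 1445710_PM_x_at the values were 7.77, 7.73, 7.94, 8.12 and 7.94 on wild-type and 7.37, 7.41, 7.24, 7.58 and 7.62 on transgenic arrays. The difference was -0.45, a ratio of 1.37. On 1429099_PM_at and 1458329_PM_x_at the differences were -0.03 and 0.01, the groups overlapped, and no array read above 4.11. Probes of an _x_at probe set can also match other sequences, so whether the lower signal came from Duxbl1 or from a related sequence cannot be told apart here. After ACAT2 ASO 1445710_PM_x_at read 7.86, 7.87, 7.92 and 7.90, against 7.79, 7.73, 7.88 and 7.74 after control ASO, a difference of 0.10 ± 0.08 (SE; 95% interval -0.07 to 0.28; limma adjusted p = 0.665).

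Irf2bpl, the nuclear protein related to IRF2 binding proteins, was likewise lower on its _x_at probe set. On 1454609_PM_x_at the values were 8.22, 7.95, 7.98, 7.85 and 8.01 on wild-type and 7.62, 7.70, 7.68, 7.37 and 7.57 on transgenic arrays. The means of 8.00 ± 0.13 and 7.59 ± 0.13 (SD, n = 5) differed by -0.41, a ratio of 1.33. On 1433468_PM_at the difference was -0.13, and wild type (5.00 to 5.43) and transgenic (4.93 to 5.29) overlapped. As for Duxbl1, whether the lower _x_at signal came from Irf2bpl or from a related sequence cannot be told apart here.

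Neither Irf2bpl probe set passed the test after ACAT2 ASO. On 1454609_PM_x_at the ACAT2 ASO arrays read 7.25, 7.23, 7.01 and 7.10 and the control ASO arrays 7.30, 7.26, 7.03 and 7.13, a difference of -0.03 ± 0.09 (SE; 95% interval -0.22 to 0.15; limma adjusted p = 0.918). On 1433468_PM_at the difference was -0.29 ± 0.11 (SE; 95% interval -0.53 to -0.05), with an unadjusted limma p of 0.0205 and an adjusted p over all probe sets of 0.281. The ACAT2 ASO arrays read 4.42 to 4.65 there and the control ASO arrays 4.57 to 5.12, so the groups overlapped.

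Hs3st3b1, the heparan sulfate 3-O-sulfotransferase, read 8.49, 8.36, 8.37, 8.30 and 8.38 on wild-type and 7.99, 7.98, 8.08, 8.05 and 8.21 on transgenic arrays on 1433977_PM_at. The means of 8.38 ± 0.07 and 8.06 ± 0.09 (SD, n = 5) differed by -0.32, a ratio of 1.25. Transgenic array 5 was the highest of its group and lay 0.09 below the lowest wild-type array. The spread within the groups was small, so that the difference came to 3.99 pooled SDs. Of its other 3 probe sets, 1421332_PM_at was lower by -0.29 without overlap, and 1421331_PM_at and 1442816_PM_at differed by 0.10 and -0.02 with overlap.

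After ACAT2 ASO the values of Hs3st3b1 lay on the other side of their control. They read 8.59, 8.45, 8.40 and 8.43, against 8.22, 8.22, 8.34 and 8.25 after control ASO. Each ACAT2 ASO array lay above each control ASO array, as was the case for 2 of the 8 genes and for 4.39% of all genes. The means of 8.26 ± 0.06 and 8.47 ± 0.08 (SD, n = 4) differed by 0.21 ± 0.06 (SE; 95% interval 0.09 to 0.33), a ratio of 1.16, with an unadjusted limma p of 0.00201 that did not pass after adjustment (adjusted p = 0.105). On 1421332_PM_at, 1421331_PM_at and 1442816_PM_at the differences were 0.13, -0.09 and -0.02, with overlap on each.

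Mgat4b, the N-glycan branching enzyme GnT-IVb, had the smallest difference in transgenic liver. The values were 7.86, 7.89, 7.95, 7.81 and 7.72 on wild-type and 7.59, 7.60, 7.71, 7.53 and 7.61 on transgenic arrays. Wild-type array 5 and transgenic array 3 lay 0.009 apart, so the groups were separated by almost nothing at that point. The means of 7.85 ± 0.09 and 7.61 ± 0.07 (SD, n = 5) differed by -0.24, a ratio of 1.18.

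After ACAT2 ASO Mgat4b read 7.67, 7.71, 7.71 and 7.65, against 7.51, 7.55, 7.58 and 7.50 after control ASO. It was the other gene whose ACAT2 ASO arrays all lay above the control ASO arrays. The means of 7.54 ± 0.04 and 7.69 ± 0.03 (SD, n = 4) differed by 0.15 ± 0.05 (SE; 95% interval 0.04 to 0.25), a ratio of 1.11, with an unadjusted limma p of 0.00959 and an adjusted p of 0.189.

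Across all 16 probe sets, 14 lay below 0 in transgenic liver, against 50.4% of all probe sets, and 11 were lower without overlap, against 0.799%. These counts include the contrast that chose the genes, and nothing is read from them. Of the 8 probe sets that did not stand for their gene, those of Clec2h showed more than the chosen one, 1421332_PM_at of Hs3st3b1 showed nearly as much, and the other 5 lay between -0.13 and 0.10. When all probe sets of a gene were averaged instead, the differences were -2.12 for Clec2h, -0.27 for Irf2bpl, -0.16 for Duxbl1 and -0.13 for Hs3st3b1. After ACAT2 ASO 0 of the 16 passed when every probe set was tested by limma.

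**Figure D3:**
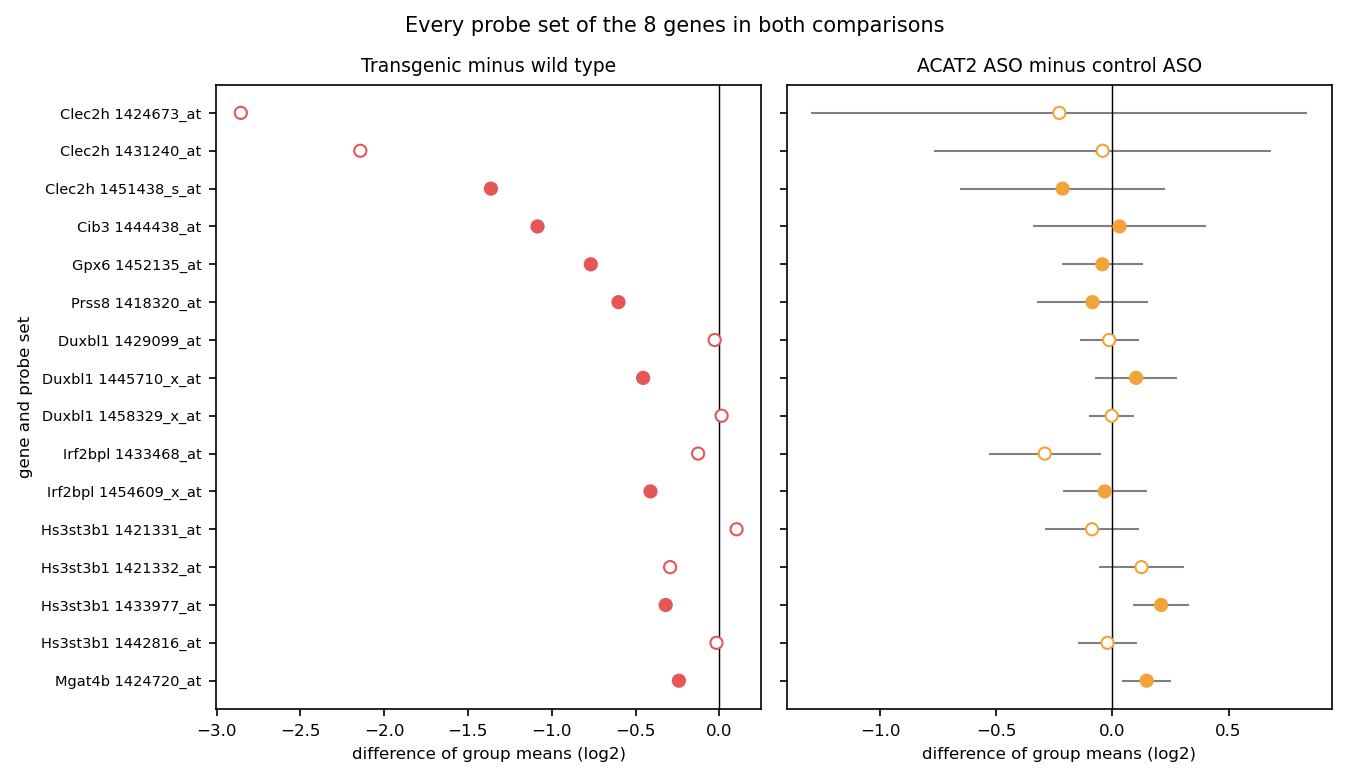
Difference of group means (horizontal axis, log2) for each of the 16 probe sets, transgenic minus wild type (left, no interval because this contrast chose the genes) and ACAT2 ASO minus control ASO (right, with 95% intervals from the limma fit over all probe sets). Filled points are the highest-mean probe set of a gene and open points the others. The 3 Clec2h probe sets lie furthest left at -2.86, -2.14 and -1.36, whereas 2 of the 3 Duxbl1 probe sets lie at -0.03 and 0.01.

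The place of each gene among all genes of the same group describes its level without the scale of a model, although probe sets differ in how strongly they bind, so the order of genes is a description only. In wild-type liver the group means of Hs3st3b1, Irf2bpl, Duxbl1 and Mgat4b lay at percentiles 85.6, 82.2, 81.3 and 80.8 of the 17097 genes, and in transgenic liver at 82.6, 78.1, 76.5 and 78.2. Cib3, Gpx6, Prss8 and Clec2h lay at 65.3, 60.4, 60.1 and 58.4 in wild type and at 50.2, 49.5, 51.8 and 36.3 in transgenic liver. The 2 sets of 4 genes did not mix in any group.

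In the ASO model the percentiles after control ASO were 86.0 for Hs3st3b1, 82.1 for Duxbl1, 79.7 for Mgat4b and 75.9 for Irf2bpl. Gpx6 lay at 42.3, Clec2h at 39.7, Prss8 at 22.3 and Cib3 at 14.1. By rank alone, Cib3 and Prss8 were over 25 points lower after control ASO than in wild-type liver, as were 0.45% of all genes. The wild-type arrays were used to choose the genes, and the groups differ in substrain, oligonucleotide and possibly in how RMA was run, so the sources of this difference cannot be told apart. After ACAT2 ASO the percentiles were 87.9, 83.2, 81.4 and 75.8 for the upper 4 genes in the same order, and 41.4, 34.1, 19.7 and 14.8 for the lower 4.

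**Figure D4:**
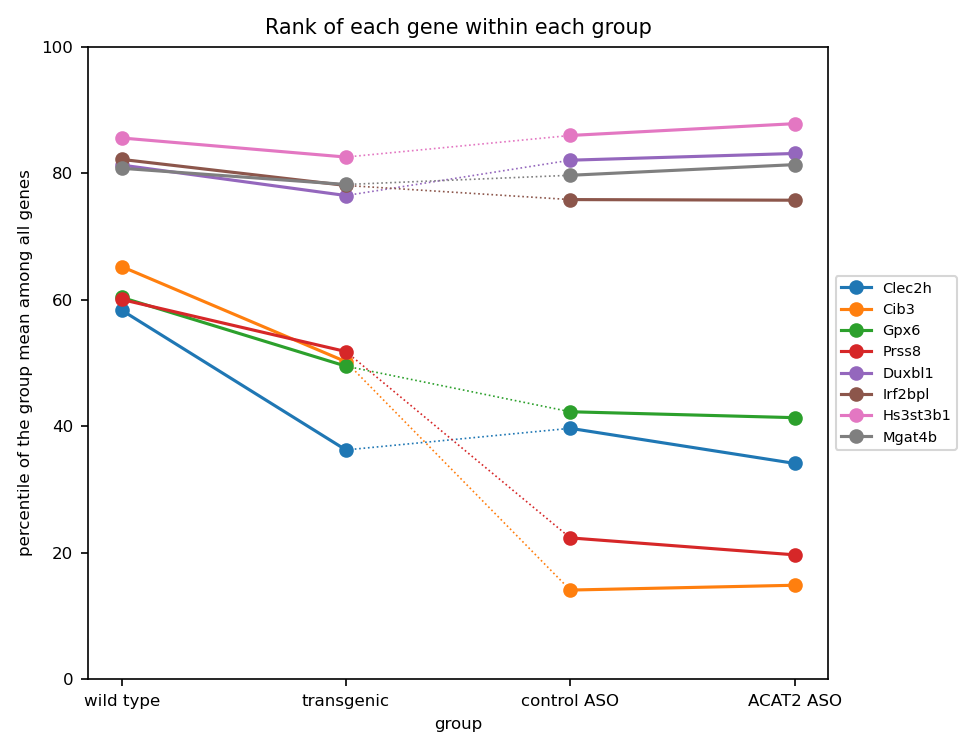
Percentile of the group mean of each gene among all 17097 genes of the same group (vertical axis, percent of genes) in the 4 groups (horizontal axis). Solid lines join the groups of a model and dotted lines only carry the colour across models. Hs3st3b1, Irf2bpl, Duxbl1 and Mgat4b stay above percentile 75, and Cib3 and Prss8 lie at 14.1 and 22.3 after control ASO.

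The genes did not vary as a block from array to array. After the group means were removed, Pearson's r over the 18 arrays was 0.60 between Clec2h and Cib3 (Spearman's rho 0.49), 0.53 between Prss8 and Irf2bpl (rho 0.60) and 0.48 between Cib3 and Prss8 (rho 0.47). It was -0.69 between Gpx6 and Mgat4b (rho -0.53) and -0.60 between Duxbl1 and Irf2bpl (rho -0.53). All points of a pair share their arrays, and these values are descriptions. Wild-type array 3 was the highest of its group for Clec2h, Cib3, Prss8 and Mgat4b, and wild-type array 4 the lowest for Cib3, Prss8, Irf2bpl and Hs3st3b1. Transgenic array 3, which had the largest Actb 3′ minus 5′ difference of its group at 1.26, was the lowest for Cib3, Gpx6 and Duxbl1 and the highest for Mgat4b, and the part of RNA integrity in these values was not tested.

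By the same measure, the genes most alike were Adad1 for Clec2h (r = 0.88, rho = 0.84), Atg9b for Cib3 (r = 0.89, rho = 0.88) and Ccnjl for Gpx6 (r = 0.86, rho = 0.89). For Prss8 it was Rgn, a calcium-binding protein of hepatocytes (r = 0.84, rho = 0.84), and for Duxbl1 it was Sftpc (r = 0.87, rho = 0.91). For Irf2bpl it was Vash2 (r = 0.91, rho = 0.86), for Hs3st3b1 1700009J07Rik (r = 0.84, rho = 0.89) and for Mgat4b Cbx1 (r = 0.89, rho = 0.86). The next in order were 4933402E13Rik, Slc16a8, Ubxn10, Flrt3, Barx2, Dph7, Atad5 and Zfp820, with r from 0.78 to 0.86. None of the 8 genes was among the 2 genes most alike to another. Each is the highest of the values for all other genes, over 18 arrays.

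The relatives of the 8 genes were counted in the same fits. Of 118 genes listed in 8 families and pathways 100 were measured, and limma called 0 of 100 in transgenic liver, against 0.228% of all genes, a share that gives few calls in a list of this size. At an unadjusted p under 0.05 there were 6, against 10.9% of all genes. After ACAT2 ASO 1 was called, Man2a2, against 0.597% of all genes, and 9 had an unadjusted p under 0.05, against 13.3%. These shares are near or below those of all genes. A missed threshold does not show that a relative had the same level in both groups.

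Of the Clec2 lectins and their NKR-P1 receptors 11 of 13 were measured, with a median difference of -0.0073 in transgenic liver and none called in either comparison. Clec2e, a lectin of the same family, had the smallest p there, at 5.36 ± 0.14 in wild type and 5.21 ± 0.05 in transgenic liver (SD, n = 5), a difference of -0.15 (limma adjusted p = 0.326). Klrb1b, the gene of an inhibitory NKR-P1 receptor, differed by -0.14 (adjusted p = 0.344). After ACAT2 ASO the median was 0.02, and the smallest p-values were those of Klrb1c, which encodes the receptor NK1.1, at -0.16 (adjusted p = 0.387), and the lectin gene Clec2g at 0.09 (adjusted p = 0.412).

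Among membrane-anchored serine proteases, their inhibitors and the sodium channel subunits, 15 of 16 were measured and none was called in either comparison. The median difference was 0.02 in transgenic liver and -0.08 after ACAT2 ASO. Scnn1a, the alpha subunit of the channel, differed by -0.15 (limma adjusted p = 0.356) and Spint2, an inhibitor of such proteases, by -0.12 (adjusted p = 0.408) in transgenic liver. After ACAT2 ASO Spint2 differed by -0.19 (adjusted p = 0.148) and Tmprss4, a transmembrane serine protease gene, by -0.24 (adjusted p = 0.337).

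Of 14 glutathione peroxidases and glutathione genes, all 14 were measured and none was called in either comparison. The smallest p-values in transgenic liver were those of Gsr, the gene of glutathione reductase, at 0.15 (limma adjusted p = 0.507) and of Gpx7 at 0.24 (adjusted p = 0.597). Gpx5, which lies next to Gpx6 on chromosome 13, had a difference of -0.07 in the transgenic model and of 0.13 in the ASO model (limma adjusted p = 0.617 and 0.257). Gpx4, the peroxidase that reduces lipid peroxides in membranes, differed by -0.20 after ACAT2 ASO (adjusted p = 0.0961). Of the CIB family 3 of 4 were measured with none called: Cib1 differed by 0.04 and Cib4 by -0.09 in transgenic liver, and Itga2b, the integrin subunit that CIB1 binds, by 0.21 after ACAT2 ASO (adjusted p = 0.123), where Cib4 differed by -0.09 (adjusted p = 0.545).

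The double homeobox list, with genes of zygotic genome activation, had 6 of 13 genes measured and a median of -0.0087 in transgenic liver and 0.0076 after ACAT2 ASO. The smallest p-values were those of Tcstv3 at 0.16 and Usp17la at -0.06 in transgenic liver (limma adjusted p = 0.489 and 0.784), and of Zscan4a at 0.08 and Tcstv1 at 0.04 after ACAT2 ASO (adjusted p = 0.531 and 0.854). All 6 IRF2 binding proteins and partners were measured, with medians of -0.14 and -0.05. Irf2 itself had a difference of -0.18 in transgenic liver (limma adjusted p = 0.574) and of -0.28 after ACAT2 ASO (adjusted p = 0.311). Nfatc2, the gene of an NFAT transcription factor, differed by -0.14 (adjusted p = 0.583) and 0.13 (adjusted p = 0.621). Neither list had a called gene in either comparison.

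Of the genes for heparan sulfate synthesis and modification 27 of 31 were measured, with a median difference of 0.05 in transgenic liver and -0.0037 after ACAT2 ASO. Extl1, an exostosin-like glycosyltransferase, had the smallest p, with 5.38 ± 0.17 in wild type and 5.73 ± 0.15 in transgenic liver (SD, n = 5), a difference of 0.35 (limma adjusted p = 0.147). Hs6st1, a 6-O-sulfotransferase gene, was second in transgenic liver at 0.13 (adjusted p = 0.556). After ACAT2 ASO the smallest p-values were those of Hs6st1 at 0.15 (adjusted p = 0.449) and Hs3st6 at 0.11 (adjusted p = 0.452). Hs3st3a1, whose product carries out the same kind of sulfation as that of Hs3st3b1, differed by 0.09 (adjusted p = 0.66). None of the 27 was called in either comparison.

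Of the N-glycan genes 18 of 21 were measured. The relatives of Mgat4b, namely Mgat4a, Mgat4c and Mgat4d, differed by 0.04, 0.02 and 0.08 in transgenic liver, and none was called. Mgat5, the gene of the next branching enzyme, differed by 0.29 (limma adjusted p = 0.306). Man2a2, a Golgi mannosidase that trims N-glycans ahead of branching, rose after ACAT2 ASO from 6.38 ± 0.27 to 6.90 ± 0.08 (SD, n = 4), by 0.53 ± 0.11 (SE, limma adjusted p = 0.0405).

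The control ASO arrays read 6.76, 6.35, 6.27 and 6.12 for Man2a2, and the ACAT2 ASO arrays read 6.91, 6.90, 6.81 and 6.99. The groups did not overlap, and control ASO array 1 lay closest to the ACAT2 ASO arrays. When single arrays of the ASO model were left out, the call was kept only without control ASO array 1 (adjusted p = 0.00274) and was lost without any other, and it was also lost with the comparison's own arrays only. In transgenic liver Man2a2 differed by -0.12 (adjusted p = 0.719).

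**Figure D5:**
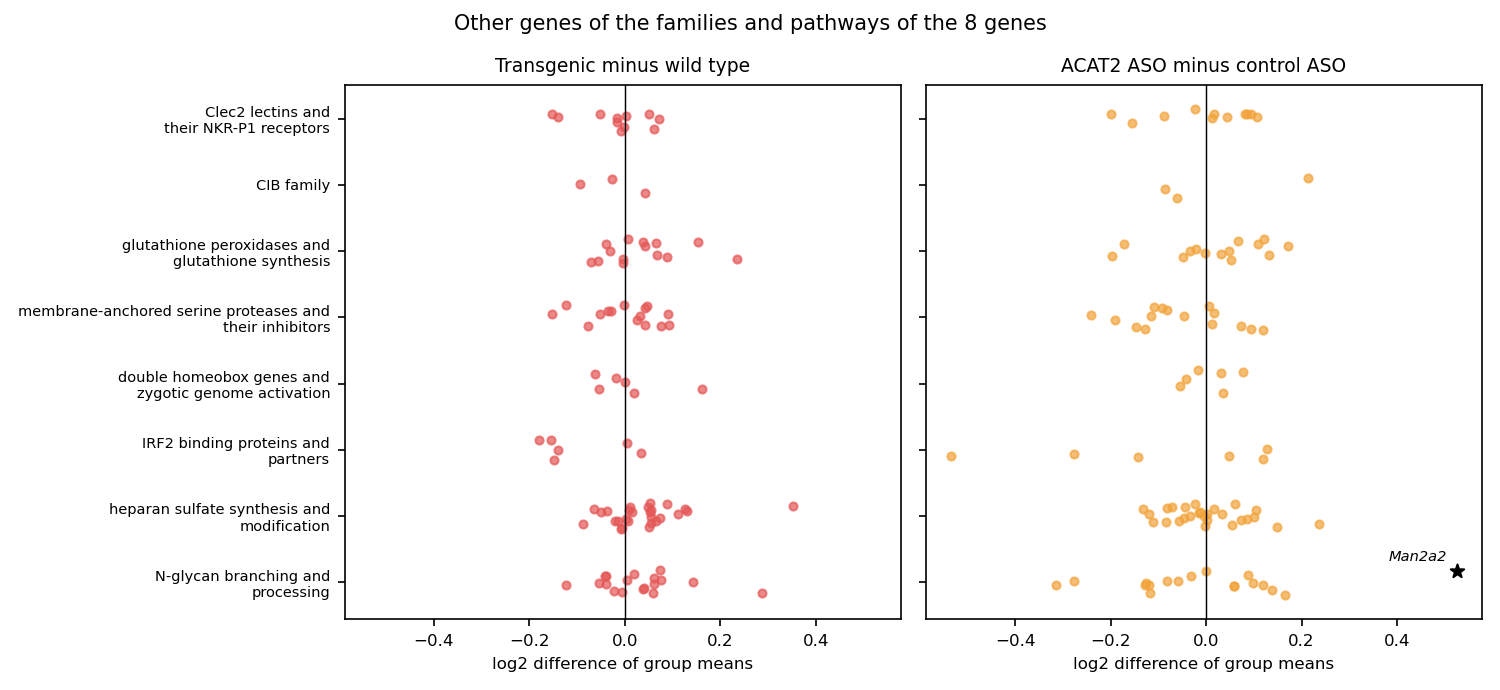
Log2 difference of group means (horizontal axis) for the 100 measured genes of 8 families and pathways (rows), transgenic minus wild type (left) and ACAT2 ASO minus control ASO (right); each point is a gene, its height within a row has no meaning, and the star marks the called gene. Man2a2, at 0.53 on the right, is the only star.

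Markers of the cell types in liver and of tissues beside it were counted in the same fits. Of 92 marker genes in 10 lists, 0 were called by limma in transgenic liver and 0 after ACAT2 ASO, against 0.228% and 0.597% of all genes. At an unadjusted p under 0.05 there were 8 and 7, against 10.9% and 13.3% of all genes. The list for natural killer cells, some of whose receptors bind Clec2 proteins, also holds markers of other lymphocytes. Of this mixed list 14 were measured, with a median of 0.03 in transgenic liver. Its array means were 4.76 to 5.27 in wild type and 4.84 to 5.07 in transgenic. Of the intestinal markers 7 were measured, with array means of 5.49 to 5.76 and 5.56 to 5.67, Alpi differing by 0.35 (adjusted p = 0.0631) and Cdh17 by -0.24. The pancreatic marker Cela2a differed by 1.15 in transgenic liver (adjusted p = 0.197), from 4.36 ± 0.25 to 5.51 ± 1.07 (SD, n = 5). Of its list of 8, however, 7 lay below 0, with a median of -0.06. The array means of that list were 4.73 to 4.91 and 4.77 to 5.09.

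After ACAT2 ASO all 12 Kupffer cell and macrophage markers lay above 0, with a median of 0.37, and their array means were 7.63 to 8.87 after control ASO and 7.60 to 9.28 after ACAT2 ASO. Of 7 cholangiocyte markers 6 lay below 0, with array means of 4.29 to 5.14 and 4.24 to 4.48. Among them Krt19 differed by -1.12 (limma adjusted p = 0.17), from an uneven 5.25 ± 1.21 after control ASO to 4.13 ± 0.10 (SD, n = 4). Over all genes 50.3% lay below 0. The part of either list in the higher values of Hs3st3b1 and Mgat4b was not tested. In transgenic liver the same lists had medians of 0.03 and -0.03.

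The genes beside the 8 on their chromosomes were read as well. With 5 measured genes on each side, 80 neighbours were read, and 0 were called in transgenic liver by limma, against 0.228% of all genes, and 9 had an unadjusted p under 0.05, against 10.9%. The shares were near those of all genes. The neighbours of Clec2h on chromosome 6 are the NKR-P1 receptor genes Klrb1a and Klrb1c, which differed by -0.02 and -0.0008. Prss36, a protease gene next to Prss8 on chromosome 7, differed by -0.15, and Kat8, on its other side, by -0.02. Mrnip and Ltc4s beside Mgat4b on chromosome 11 differed by -0.14 and -0.06, and Pmp22 and Cox10 beside Hs3st3b1, on the same chromosome, by 0.09 and 0.01. The order of genes was taken from RefSeq (GRCm38.p6).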

How the data were processed

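Liver RNA was measured on 18 Affymetrix GeneAtlas MG-430 PM arrays after 3′-IVT labelling, per the labels' protocols. The authors deposited RMA values, per the submitters' processing notes, and their range is that of log2 values. No source used here gives the RMA version or how probe sets were defined. Array medians differed between the models, and whether RMA was run on each separately is not stated. Of 45141 probe sets, 104 controls were left out. The platform annotation gave 1 symbol for 28898, several for 551 and none for 15588; 28689 matched RefSeq by Entrez number. The probe set with the highest mean stood for each of 17097 genes, with no filter on low values.

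limma 3.58.1 (R 4.3.3; lmFit, eBayes) was fitted once over all arrays with a mean per group, and a gene was called at a two-sided Benjamini-Hochberg adjusted p under 0.05 over all genes. The procedure was tested on simulated data, only with differences larger than those of the 8 genes after ACAT2 ASO. That test therefore does not bear on differences of their size. Identical values were found in 0 pairs of arrays. Precision is limited by the number of arrays. The 8 genes, the lists of relatives and markers, and the tests were chosen with earlier results of these data known. Genes were named by rule: the 8 genes, the called or 2 lowest-p relatives per list, and the 2 genes most alike. Other relatives, markers and neighbours were chosen after their values were seen. Alternatives covered the gene filter, scaling, probe set choice, variance model, array weights, replicate block, left-out arrays and a stricter adjusted p threshold. Figures were drawn with matplotlib 3.10.9.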

Additional observations from a re-analysis of the deposited data

Results flagged for a closer look

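Among the 64 combinations of a probe set and a group, 2 held an array far from the others of its group by Dixon's criterion, which chance gives in about 1 of 20 groups. Gpx6 read 4.80 on control ASO array 4, above 3 arrays that lay close together. Duxbl1 read 3.38 on transgenic array 3 with 1458329_PM_x_at, a probe set near the lower end of the scale.

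For 3 genes every transgenic array lay below the wild-type mean and every ACAT2 ASO array above the control ASO mean. The transgenic part was fixed by the choice of the genes, and the share of all genes meeting both parts was not counted. Nothing is therefore read from this count. None of the 3 was called after ACAT2 ASO, and for Duxbl1 the groups overlapped there (0.10, limma adjusted p = 0.665). The transgenic difference minus the ACAT2 ASO difference was -0.56 for Duxbl1, -0.53 for Hs3st3b1 and -0.39 for Mgat4b (log2). This contrast between the models was not tested, since the transgenic arrays were used to choose the genes.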

How the results depend on the processing

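The count of the 8 genes called after ACAT2 ASO was 0 in all 19 alternatives, with a lowest limma adjusted p of 0.0663 (Hs3st3b1, array weights). The count of relatives called in transgenic liver was 0 in all 21. Both sets include the main fit at an adjusted p under 0.01, where a count of 0 was fixed in advance. The median transgenic difference of the 8 genes stayed between -0.56 and -0.44 over 16 alternatives. The count of relatives called after ACAT2 ASO (1, Man2a2) was 2 when all probe sets of a gene were averaged (Spint2 added) and 3 with array weights (Itga2b and Gpx4 added). It was 0 with the comparison's own arrays and 0 without wild type 2, ACAT2 ASO 1 and control ASO 4, a choice made after seeing the data. Leaving out single arrays gave 0 to 1. The cause was not tested. With the replicate block it was 0, and 0 of the 8 genes were called (Hs3st3b1 adjusted p = 0.238, Mgat4b 0.244). Same-numbered arrays correlated by -0.41 to 0.41 after group means were removed. Their titles give only a number, and these values cannot show whether such arrays share a batch or pairing.

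Groups of 4 and 5 arrays limit what can be seen. In the ASO model so do low signals, some near the nonspecific controls, for Clec2h, Cib3, Gpx6 and Prss8.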
